A study of Mus musculus with 12 samples.

Results

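The genes of the voltage-gated sodium and calcium channels were read from RNA-seq of whole mouse cochleae. The members are all genes of the expression table whose symbol begins with Cacna, Cacnb or Cacng, or with Scn and a digit. There are 40 of them among 23949 genes, 14 of sodium channels and 26 of calcium channels. The 12 libraries fall into 4 groups of 3: Dusp1-/- (KO) at 5 months (E7, F18 and F19), wild type (WT) at 5 months (E1, E3 and E4), KO at 8 months (F5, F6 and F27) and WT at 8 months (F1, F10 and F12). No treatment is labelled, and all mice were of a mixed 129S2/SvPas:C57BL/6 background. Sex is not labelled either: Xist, the RNA of the inactive X, was at 34.9 to 52.4 FPKM in E4, F6, F27 and F1 and at most 0.0935 FPKM in the others. Each library carries a code of a letter and a number, and the labels do not say what the letter stands for. At 5 months the WT codes all begin with E and the KO codes with E or F, and at 8 months all begin with F. The sources do not say whether any tissue was pooled.

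Voltage-gated sodium channels open within a fraction of a millisecond and carry the rising phase of the action potential. Each has a large pore subunit and 1 or more small beta subunits that shift its gating and tie it to other membrane proteins. Voltage-gated calcium channels turn depolarization into calcium entry, and have a pore subunit, an intracellular beta subunit and an extracellular alpha2delta subunit. In the cochlea, L-type channels with the pore subunit of Cacna1d drive transmitter release from inner hair cells, and sodium channels of the spiral ganglion, with Scn8a at initial segments and nodes of Ranvier, carry the signal to the brainstem. Most Cacng genes, although named as calcium channel gamma subunits, encode proteins that escort AMPA-type glutamate receptors. DUSP1, the protein lacking in the KO, is a phosphatase that switches off stress-activated MAP kinases.

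Values are FPKM, read numbers scaled by transcript length and by the mapped reads of the library, so levels of different genes can be compared per length. Changes are differences of log2(FPKM + 0.5) from a limma fit of all 4 groups over 16277 genes, those that averaged 0.5 FPKM or more. Adjusted p follows Benjamini-Hochberg over all these genes, with a threshold of 0.05. Of the 40 members 34 reached that mean, and Scn3a, Scn4a, Cacna1f, Cacna1i, Cacng3 and Cacng6 did not. Those 6 lay between 0 and 1.71 FPKM. In the mm9 annotation 3 members share exonic bases with a gene on the other strand (Scn9a, Cacna1d and Cacna1h), and the library kit keeps strand.

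Whether the libraries were of similar depth cannot be read from FPKM. A read came out at 0.871 to 1.03 times its worth in E1. Only ratios near 1 were kept for this, so it could not show a large difference. FPKM per library added up to 501193 to 583700, but such sums are already scaled by depth. Dusp1 itself had 61.9, 81.5 and 75.3 FPKM in the libraries labelled KO at 5 months, against 60.8, 47.6 and 29.5 FPKM in those labelled WT. At 8 months it had 55.6, 73.8 and 57.1 FPKM in the libraries labelled KO, against 43.0, 38.3 and 38.6 FPKM in those labelled WT. Its RNA was therefore no lower in the libraries labelled KO, and neither the labels nor the methods say which bases the allele lacks. KO and WT below are the genotypes on the labels. Neuron and hair cell markers were found in every library (summed 1856 to 2657 FPKM for 10 neuron genes, 73.5 to 112 FPKM for 8 hair cell genes), with no marker of either list at 0.

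Some libraries stood apart in ways that touch the channel genes. E1 was high in genes of the cerebellum: Pcp2, a Purkinje cell gene, was at 186 FPKM there, against 0.292 to 2.59 FPKM in the other 11 libraries, and Gabra6, a granule cell gene, at 43.0 FPKM against 0 to 0.266 FPKM. The 10 cerebellar markers, chosen after this was seen, summed to 633 FPKM in E1 and to 108 to 162 FPKM elsewhere. E3 and F18 were high in skeletal muscle genes, with 228 and 188 FPKM of the muscle actin Acta1, against 0.641 to 39.9 FPKM elsewhere. The 10 muscle markers, of which Myog was at 0 in some libraries, summed to 1153 FPKM in E3 and 839 FPKM in F18. By group they summed to 6.62 to 839 FPKM in KO and 21.2 to 1153 FPKM in WT at 5 months, and to 21.4 to 196 FPKM in KO and 9.41 to 37.2 FPKM in WT at 8 months. Neutrophil markers summed to 4012, 7042 and 22134 FPKM in KO at 5 months, from lowest to highest, against 66.2, 591 and 644 FPKM in WT at 5 months. At 8 months they summed to 869 to 16218 FPKM in KO, highest in F5, and to 660 to 4406 FPKM in WT, highest in F12. Several results at 5 months are therefore also given without E1, or without E1, E3 and F18. Leaving out all of these makes E4, the library with Xist at 5 months, the sole WT library of that age, against E7 and F19 of KO. Changes at 5 months in that setting are sizes without a spread in WT. In whole tissue, fewer cells of a type and less RNA per cell cannot be told apart.

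The members spanned a wide range of levels. Averaged over the 12 libraries 33 of 40 had at least 1 FPKM and 7 at least 10 FPKM. Of the sodium beta subunit genes, Scn4b, whose product supports resurgent current in fast-firing neurons, had 44.4 to 68.5 FPKM (mean 56.0). Scn2b and Scn3b were far lower than Scn4b, with means of 6.78 and 3.71 FPKM.

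Among the sodium pore subunits no order between the top pair can be given. Scn7a, which encodes a sodium-sensing channel of glia, had 9.72 to 21.0 FPKM (mean 15.04) and Scn8a had 10.03 to 19.2 FPKM (mean 14.1), and Scn7a was the higher in 7 of 12 libraries. Scn1a, a main pore gene of central and large sensory neurons, had 6.89 to 13.2 FPKM and was below Scn8a in all 12.

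By mean level all calcium pore subunits were below Scn7a, Scn8a and Scn1a. Cacna1d, Cacna1a and Cacna1g (means of 8.38, 6.41 and 5.88 FPKM) were above the other sodium pores, led by Scn10a (4.38 FPKM). Cacna1d, the hair cell channel, had 7.25 to 9.88 FPKM, above every value of Cacna1c (1.38 to 3.89 FPKM), the L-type pore of heart and smooth muscle. Cacna1a, which encodes the P/Q-type pore of many synapses, had 4.73 to 17.6 FPKM, and the T-type gene Cacna1g 3.91 to 13.8 FPKM. In both of these the top value was that of E1. Cacna1b and Cacna1e, of N-type and R-type channels, lay between 0.938 and 4.37 FPKM, and Cacna1h between 1.13 and 3.39 FPKM. Cacna1f, the L-type pore of the retina, stayed at or under 0.0738 FPKM.

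Among auxiliary subunits Cacnb3 was the leading beta gene at 25.4 to 38.3 FPKM, above all values of Cacnb4 (6.24 to 17.7), Cacnb1 (7.29 to 10.5) and Cacnb2 (5.25 to 8.63). Cacna2d3, the alpha2delta gene needed for normal auditory nerve synapses in mice, had 8.77 to 12.3 FPKM and was above Cacna2d1 in all 12 libraries, although their ranges overlapped. Cacng7, an AMPA receptor escort, had 42.1 to 71.0 FPKM and the next gamma gene, Cacng4, had 4.61 to 10.4 FPKM.

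Some neighbours on a chromosome were at like levels and others were not. In the mm9 annotation 20 of the 40 members lie in 8 runs of neighbours less than 500000 bases apart. On chromosome 7, from 3336685 to 3435658, Cacng7 (mean 49.6 FPKM) stands beside Cacng8 and Cacng6, of which the lower has a mean of 0.175 FPKM. On chromosome 9, from 44925959 to 44962144, Scn2b at 6.78 FPKM is followed by Scn4b at 56.0 FPKM. By contrast, Cacna2d3 and Cacna1d, neighbours on chromosome 14, had means of 10.4 and 8.38 FPKM, and Cacna1c and Cacna2d4, on chromosome 6, had means of 2.10 and 1.97 FPKM.

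**Figure D1:**
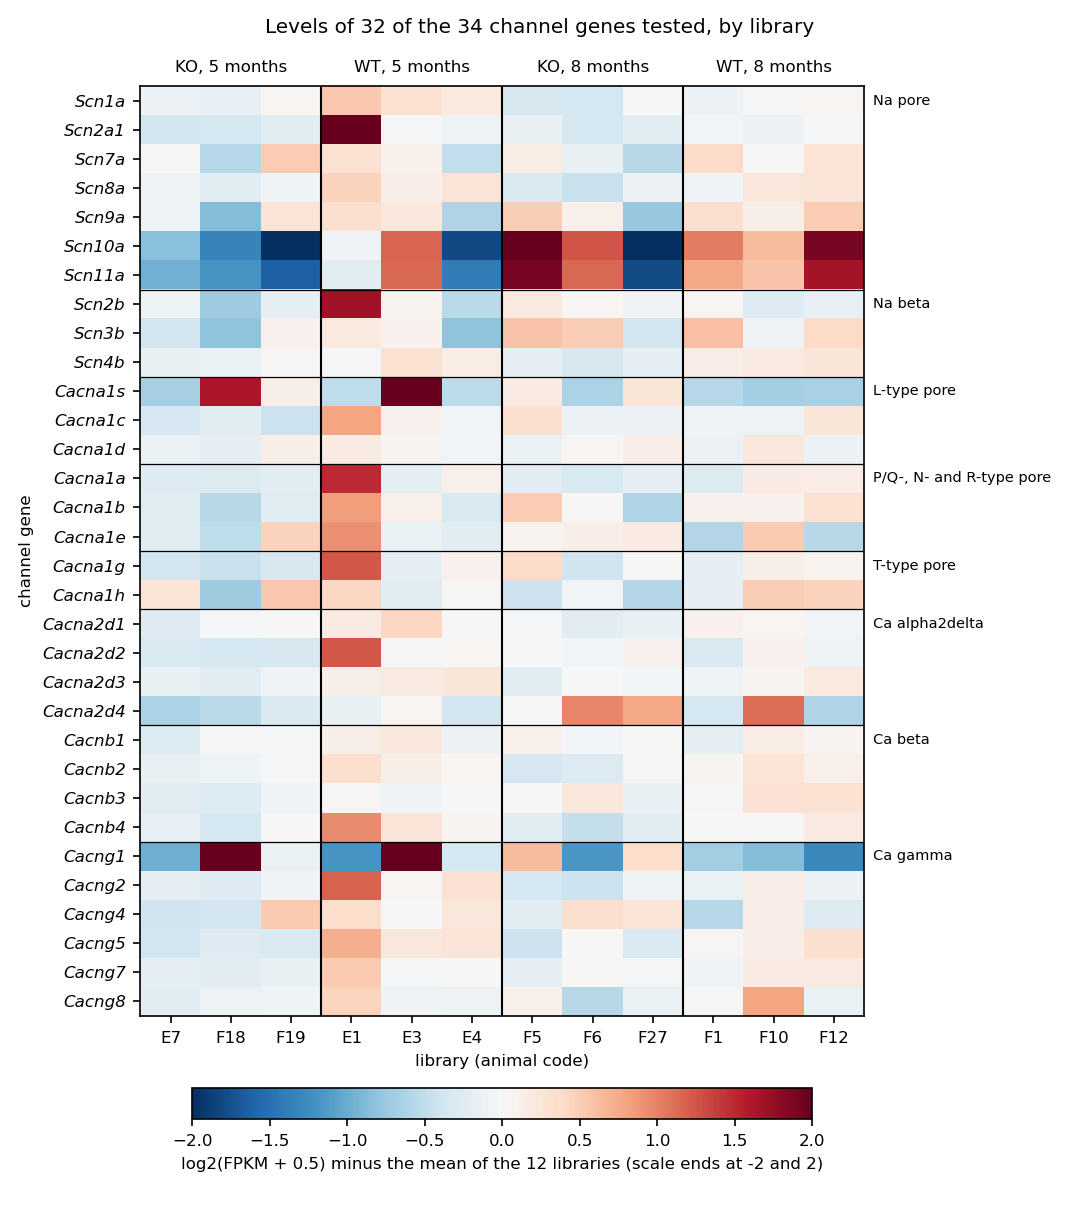
Of the 34 channel genes tested, 32 (rows, by role) in the 12 libraries (columns, by group), as log2(FPKM + 0.5) minus each gene's mean over all libraries, with the colour scale ending at -2 and 2. E1 is dark red for Scn2a1 and Scn2b among others, E3 and F18 for Cacna1s and Cacng1, and Scn10a and Scn11a differ between libraries of the same group.

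At 5 months the channel genes were mostly lower in the libraries labelled KO than in those labelled WT, without any passing the threshold. Of 34 members 0 passed at an adjusted p of 0.05, and limma called 0.0676% of all genes. At an unadjusted p under 0.05, 14 members were lower in KO, which is 41.2% of them, and 0 were higher. Over all genes tested 9.92% were lower and 8.23% higher by that measure. The change was below 0 in 30 of 34 members, against 55.3% of all genes, and the median change was -0.32, against -0.027 over all genes. The smallest adjusted p of a member was 0.146, for Cacng5. All 3 libraries labelled KO lay under all 3 labelled WT for 14 members, against 13.8% of all genes, and above them for 0, against 11.3%.

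Without E1 the median of the members was -0.24 at 5 months, 9 were lower at an unadjusted p under 0.05, against 6.33% of all genes, and 30 of 34 were below 0, against 54.7% of all genes. Of these 30, 28 were below 0 with E1 as well: Cacna1e and Cacna1h turned above 0, and Cacna1s and Cacng1 below. Without E1, E3 and F18, WT at 5 months is E4 alone, so only sizes of change are given. The median of the 33 members tested was then -0.13. Scn2b was at 0.40, against -0.73 with all libraries. In that setting 22 of 33 were below 0, against 53.0% of all genes, and 10 had turned sign, among them Scn9a, Scn3b, Scn10a and Cacna1d.

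Markers of brain tissue were also lower in KO. The 10 markers of brain and brainstem, of which Gabra6 and Slc6a5 were at 0 in some libraries, summed to 97.0 to 137 FPKM in KO and 127 to 229 FPKM in WT at 5 months, where E1 (229 FPKM) and E4 (190.0 FPKM) were the high libraries. At 8 months they summed to 111 to 146 FPKM in KO and 127 to 152 FPKM in WT. Of 9 tested, 9 were below 0 at 5 months, with a median change of -0.60, and 4 were lower at an unadjusted p under 0.05: Opalin, of oligodendrocytes, Aqp4 and Slc1a2, of astrocytes, and Snap91, of synapses. At 8 months 9 of 9 were below 0, with a median of -0.25, and 1 was lower. None passed at an adjusted p of 0.05. Without E1, 7 were tested at 5 months, with 7 below 0, a median of -0.35 and 1 lower. Without E3 and F18, 9 of 9 were below 0, with a median of -0.77, and 8 were lower, against 6.49% of all genes. Without E1, E3 and F18, where E4 alone stands for WT at 5 months, 7 of 7 were below 0, with a median of -0.65. The part of these markers in the lower channel genes was not tested.

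**Figure D2:**
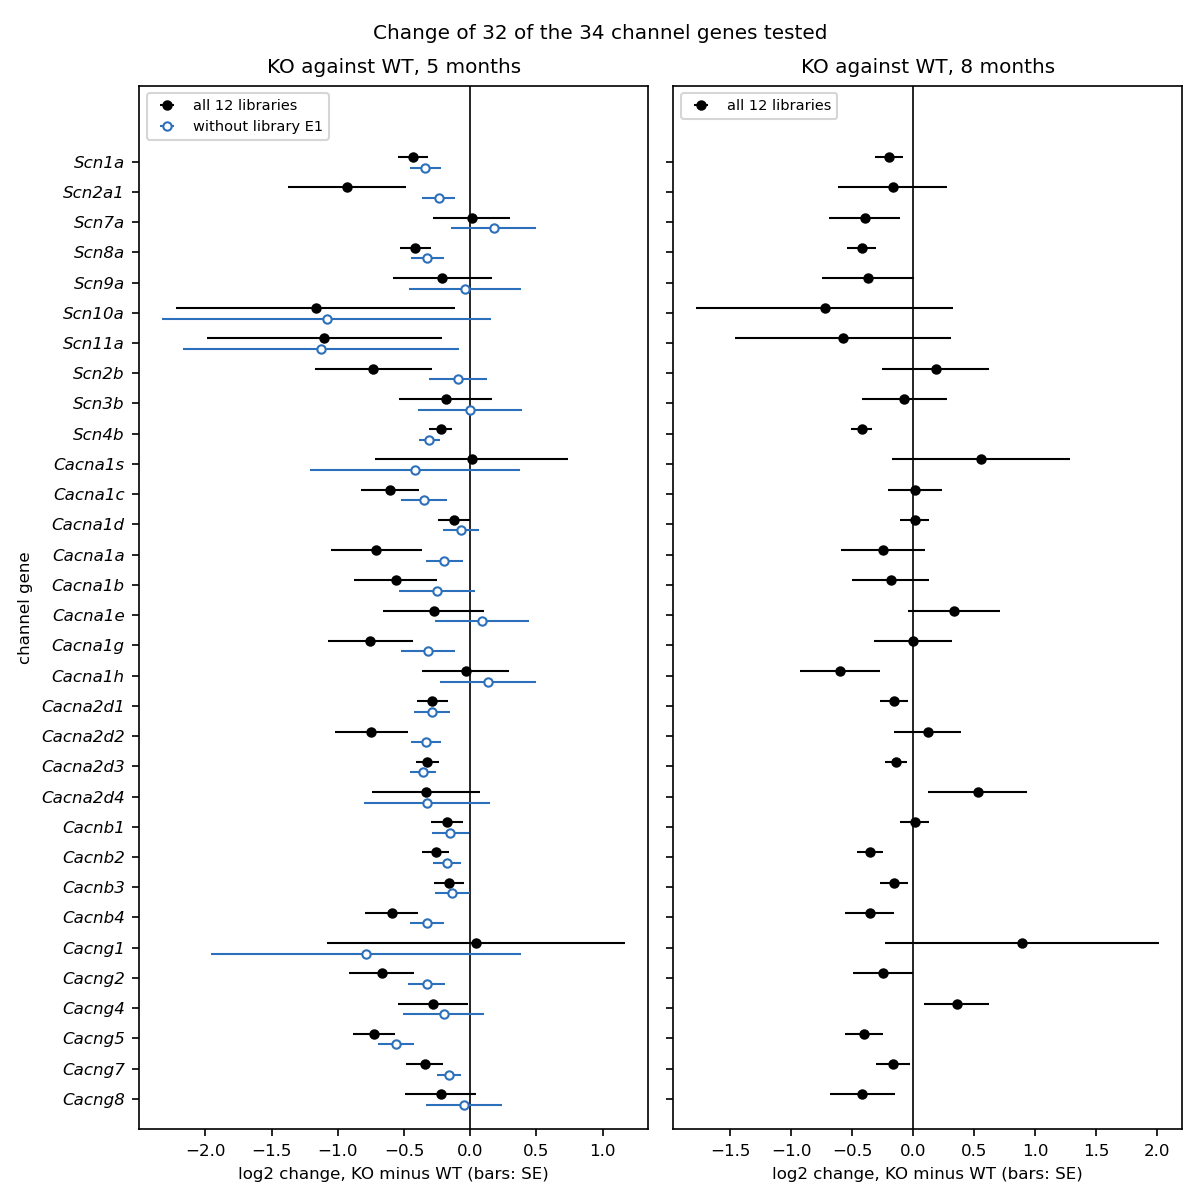
Log2 change with its standard error for 32 of the 34 channel genes tested, libraries labelled KO minus those labelled WT, at 5 months (left) and 8 months (right). Open blue points leave out E1, the library high in cerebellar genes: Scn2a1 then sits at -0.24 in place of -0.93, and Cacng5 at -0.56 in place of -0.73.

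The sodium channels of myelinated and fast-firing axons were among the lower genes at 5 months. Scn8a, the node and initial segment pore, had 12.9, 11.8 and 13.1 FPKM in KO against 19.2, 15.2 and 16.7 FPKM in WT. The groups did not overlap, the highest value being that of E1. The change was -0.41 ± 0.12 (SE, n = 3 each; adjusted p = 0.184), and -0.33 without E1. Scn1a had 8.19, 7.95 and 9.19 FPKM in KO against 13.2, 11.2 and 10.4 FPKM in WT. These too did not overlap, at a change of -0.43 ± 0.11 (adjusted p = 0.169), and of -0.25 without E1, E3 and F18. Scn4b had 49.8, 50.9 and 56.4 FPKM in KO against 54.2, 68.5 and 61.6 FPKM in WT. For Scn4b F19 of the KO lay above E1 of the WT, and the change was -0.22 ± 0.086 (adjusted p = 0.226). Scn2b, another beta subunit gene, had 5.67, 3.55 and 5.32 FPKM in KO against 20.6, 6.44 and 4.03 FPKM in WT, and its change of -0.73 ± 0.44 rests on E1 (-0.093 without it, and 0.40 without E1, E3 and F18).

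Of the calcium channel genes, Cacng5, which encodes an AMPA receptor escort of the same class as Cacng7, stood furthest from 0 for its error. It had 2.46, 2.73 and 2.62 FPKM in KO against 5.95, 4.02 and 4.13 FPKM in WT. All KO values lay under all WT values, with a change of -0.73 ± 0.16 (adjusted p = 0.146). Cacna2d3 had 9.30, 8.79 and 9.76 FPKM in KO against 11.2, 11.73 and 12.3 FPKM in WT. Its groups did not overlap, and its change of -0.32 ± 0.088 (adjusted p = 0.174) became -0.36 without E1. Cacnb2, the beta subunit gene needed for hair cell calcium currents in mice, had 6.04, 6.22 and 6.52 FPKM in KO against 8.63, 7.33 and 6.93 FPKM in WT. These did not overlap either, and E1 gave the top value. The change was -0.26 ± 0.11 (adjusted p = 0.237), and -0.13 without E1, E3 and F18.

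Further calcium channel genes were lower in KO at 5 months, most of them by an amount that shrank without E1. Cacnb4, the beta gene mutated in lethargic mice, had 7.87, 6.90 and 8.94 FPKM in KO against 17.7, 10.8 and 9.27 FPKM in WT. Its change was -0.59 ± 0.20 with E1, -0.33 without it and -0.14 without E1, E3 and F18. Cacna2d2, whose loss impairs hair cell calcium channels in mice, had 3.82, 3.68 and 3.79 FPKM in KO against 12.2, 4.76 and 4.99 FPKM in WT. Its KO values were all under its WT values, and its change was -0.75 ± 0.28, or -0.33 without E1. Cacna1g had 4.20, 3.91 and 4.36 FPKM in KO against 13.8, 4.80 and 5.87 FPKM in WT, a change of -0.75 ± 0.32, or -0.32 without E1. For Cacna1c, Cacng2 (the stargazin gene) and Cacng7 the changes were -0.61, -0.67 and -0.34, and -0.35, -0.33 and -0.16 without E1. Cacna2d1, highest in E3, moved little without E1 alone, and more when E3 and F18 were left out or E1 along with them. It had 6.81, 8.13 and 8.31 FPKM in KO against 9.45, 11.2 and 8.15 FPKM in WT, so that F19 lay above E4, and its change of -0.28 ± 0.12 was -0.29 without E1, -0.21 without E3 and F18 and -0.11 without all of these.

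The hair cell pore gene Cacna1d was not among the lower genes. It had 7.61, 7.25 and 9.05 FPKM in KO against 9.40, 8.64 and 8.06 FPKM in WT, and the groups overlapped (change -0.12 ± 0.12, adjusted p = 0.626, and 0.040 without E1, E3 and F18). The most abundant beta gene, Cacnb3, had 26.5, 25.4 and 29.3 FPKM in KO against 31.2, 28.9 and 30.6 FPKM in WT, at -0.16 ± 0.11. Scn7a averaged 15.2 ± 5.67 FPKM in KO and 14.8 ± 4.06 FPKM in WT (SD, n = 3 each), and the groups overlapped.

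At 8 months again no member passed the threshold. Of 34 members 0 passed at an adjusted p of 0.05, and limma called 0.0123% of all genes. At an unadjusted p under 0.05, 5 members were lower in KO, against 2.97% of all genes, and 0 were higher, against 2.21%. Scn4b, Scn8a, Cacnb2 and Cacng5 were among them. The change was below 0 in 23 of 34 members, against 51.4% of all genes, with a median of -0.17, against -0.0040. The 3 libraries labelled KO lay under the 3 labelled WT for 7 members, against 6.18% of all genes, and above them for 0, against 4.10%.

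Scn4b showed the clearest separation at 8 months. It had 48.3, 44.4 and 48.6 FPKM in KO against 60.7, 62.9 and 66.0 FPKM in WT. The groups lay well apart, and the change was -0.42 ± 0.086 (adjusted p = 0.488). Scn8a had 11.2, 10.03 and 12.7 FPKM in KO against 13.1, 16.2 and 16.7 FPKM in WT, with no overlap, at a change of -0.42 ± 0.12 (adjusted p = 0.894).

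Cacnb2 and Cacng5 were lower in KO at both ages. At 8 months Cacnb2 had 5.25, 5.51 and 6.56 FPKM in KO against 7.01, 8.21 and 7.26 FPKM in WT, a change of -0.35 ± 0.11. Cacng5 had 2.39, 3.36 and 2.65 FPKM in KO against 3.44, 3.76 and 4.34 FPKM in WT, a change of -0.40 ± 0.16. Neither overlapped between the groups, and for Cacng5 the nearest values, of F6 and F1, were close. Cacna2d2, lower in KO at 5 months, was not so at 8 months, when it averaged 4.90 ± 0.250 FPKM in KO and 4.50 ± 0.649 FPKM in WT (SD, n = 3 each). Cacna1d averaged 8.45 ± 0.818 FPKM in KO and 8.41 ± 1.27 FPKM in WT.

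Averaged over both ages 0 of 34 members passed at an adjusted p of 0.05, against 0.0799% of all genes called by limma. At an unadjusted p under 0.05, 11 were lower in KO, against 9.66% of all genes, and 0 higher, against 7.75%. The change was below 0 in 29 of 34, against 54.4% of all genes, and in all 12 sodium channel genes tested. The smallest adjusted p was 0.1002, for Scn4b (change -0.32 ± 0.061), followed by Cacng5 at 0.105 (-0.56 ± 0.11), Scn8a at 0.114 (-0.42 ± 0.084) and Cacnb2 at 0.132 (-0.31 ± 0.074). All 6 libraries labelled KO lay under all 6 labelled WT for 3 members, Cacnb2, Cacng5 and Scn2a1, against 0.928% of all genes, and above them for 0, against 0.289%. Scn2a1, a pore gene of unmyelinated axons singled out for this after its values were seen, had 1.15 to 1.42 FPKM in KO and 1.47 to 8.03 FPKM in WT, where E1 gave the top value and the other WT libraries ended at 1.58 FPKM. Without E1 the median over both ages was -0.19, against -0.29 with it, and 13 members were lower at an unadjusted p under 0.05, against 7.81% of all genes.

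**Figure D3:**
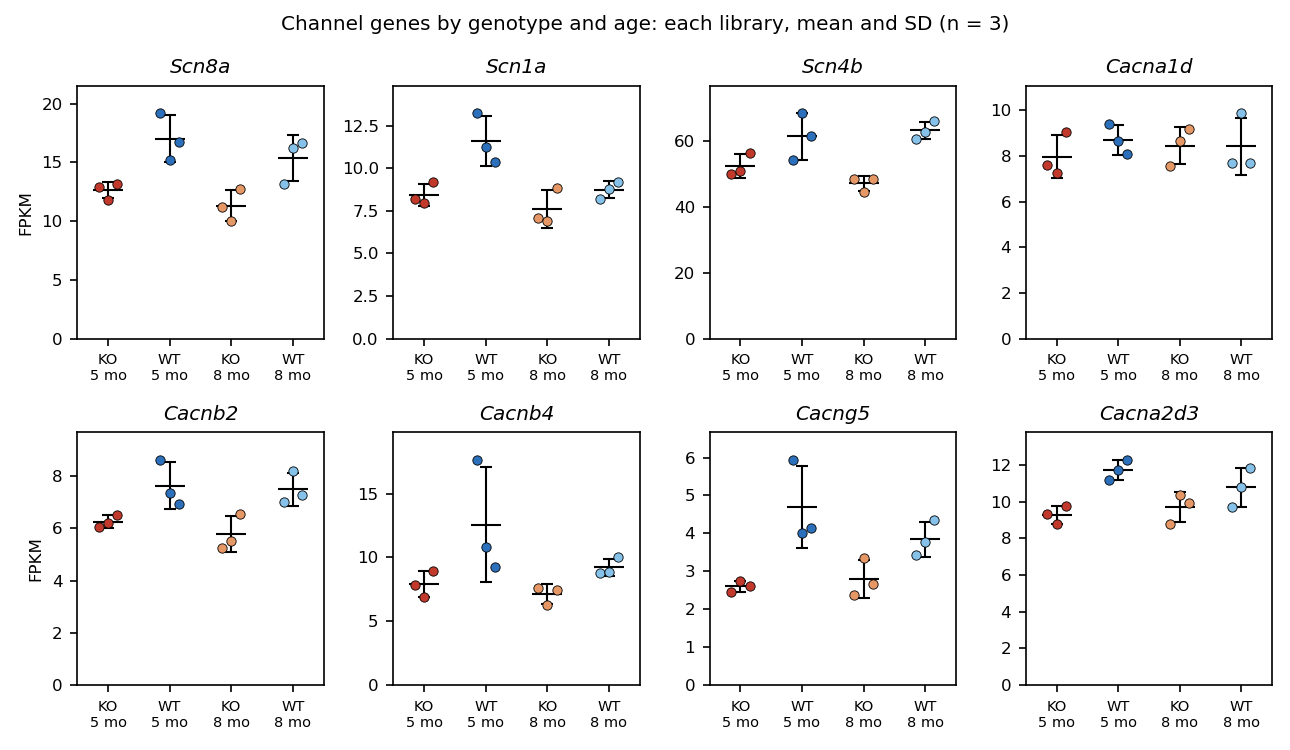
FPKM of 8 channel genes in each library, with the mean and SD of each group of 3. For Cacnb2 and Cacng5 all 6 libraries labelled KO lie under all 6 labelled WT, and Scn4b separates the groups at 8 months (44.4 to 48.6 FPKM in KO, 60.7 to 66.0 FPKM in WT) but not at 5 months.

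Markers of neurons were also mostly lower in KO, with 0 of 10 past the threshold. Snap25, a synaptic vesicle fusion gene used as a neuron marker, had 466, 439 and 493 FPKM in KO at 5 months against 698, 631 and 626 FPKM in WT. At 8 months it had 457, 530 and 562 FPKM in KO against 539, 554 and 574 FPKM in WT, where the groups overlapped. The 10 neuron markers summed to 1856 to 2162 FPKM in KO and 2186 to 2380 FPKM in WT at 5 months, and to 2273 to 2510 FPKM in KO and 2408 to 2657 FPKM in WT at 8 months. Their median change was -0.15 at 5 months and -0.12 at 8 months. Snap25, Elavl4 and Stmn2, 3 of the 10, were lower at 5 months at an unadjusted p under 0.05, against 9.92% of all genes. At 8 months Elavl4 alone was, against 2.97% of all genes. For Nefl, Nefh, Tubb3 and Prph, also of this list, the genotypes overlapped at both ages. With the neuron marker level as a covariate the median over both ages of the channel genes was -0.16, and 8 of 34 were lower at an unadjusted p under 0.05, against 5.93% of all genes. With that covariate the median at 8 months was -0.041, against -0.17 without it, with 20 of 34 below 0. For the 12 sodium channel genes at 5 months it was -0.090, against -0.36 without it, with 6 below 0. The sodium channel genes that turned above 0 were Scn3b, Scn9a, Scn10a and Scn11a. The median of the 10 sensory neuron markers, chosen after their values were seen and described below, moved from -0.69 to 0.14 at 5 months with that covariate. For the 22 calcium channel genes at 5 months the median was -0.32 with it, against -0.30 without it. The covariate is a mean over the 10 neuron markers, Prph among them. Prph was highest in F6, F5 and F12 (92.7, 90.1 and 89.1 FPKM), the libraries highest in Scn10a as well. The parts of neuron number and of sensory neuron RNA in the differences above were not tested further.

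Genes that work with the channels were also mostly lower in KO at 5 months. Of 18 partners of sodium channels at nodes and initial segments (ankyrins, spectrins, contactins and fibroblast growth factor homologues) the change was below 0 in 18, with a median of -0.40, and 10 were lower at an unadjusted p under 0.05, against 55.3% of all genes below 0 and 9.92% lower. Without E1, 17 were tested, with a median of -0.21 and 7 lower, against 6.33% of all genes. Fgf12, which encodes an intracellular modulator of sodium channel inactivation, had 38.7, 40.1 and 37.5 FPKM in KO against 55.8, 69.8 and 64.2 FPKM in WT. Its groups lay well apart at 5 months (change -0.69 ± 0.16, adjusted p = 0.147), whereas at 8 months it had 39.8, 51.6 and 54.7 FPKM in KO against 30.1, 41.8 and 46.9 FPKM in WT and overlapped. Of 21 presynaptic and hair cell partners of calcium channels 21 were below 0, with a median of -0.35, and 11 were lower at an unadjusted p under 0.05. Without E1 the median was -0.27, with 20 of 21 below 0 and 3 lower. At 8 months the medians of these lists were -0.17 and -0.079, with 2 and 0 members lower, against 2.97% of all genes. None of the partners passed at an adjusted p of 0.05, and the lists were drawn up with results of these data known. Of 11 RGK inhibitors, calmodulins and calmodulin kinases, 8 were below 0 at 5 months, with a median of -0.18. Of 15 muscle coupling partners 12 were below 0, with a median of -0.20. Over all genes 55.3% were below 0 at 5 months.

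Between ages few members differed within a genotype, and 0 passed at an adjusted p of 0.05 in either genotype. Over all genes limma called 0% in KO and 0.0123% in WT. In KO, 8 against 5 months, 2 members were higher at an unadjusted p under 0.05, Cacna2d4 among them, against 8.83% of all genes, and 1 was lower, against 3.75%. The change was below 0 in 13 of 34 members, against 46.8% of all genes. In WT, Scn1a alone was lower at an unadjusted p under 0.05, against 3.54% of all genes, and 0 members were higher, against 4.28%. The change was below 0 in 23 of 34, against 46.0% of all genes, and in 14 of 34 without E1, against 44.3%. In WT Scn1a had 8.21, 8.80 and 9.22 FPKM at 8 months against 13.2, 11.2 and 10.4 FPKM at 5 months, with no overlap, and its change was -0.38 ± 0.11 (adjusted p = 0.631), or -0.29 without E1. These contrasts share libraries with those between genotypes.

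The genotype difference was itself compared between ages. For this difference 0 of 34 members passed at an adjusted p of 0.05, and limma called 0.00614% of all genes. At an unadjusted p under 0.05, 1 member had a difference above 0, against 3.02% of all genes, and 1 had one below 0, against 1.66%. The difference was below 0 in 8 of 34 members, against 47.4% of all genes. The median over the members was 0.26 and turned to -0.026 without E1, E3 and F18.

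E1 was the highest of the 12 libraries for 16 of 34 members, which is 47.1% of them, against 16.6% of all genes tested. It was more than 2 times the highest of the other 11 libraries for 4 members, against 1.31% of all genes. They were Cacna1a, Cacna2d2, Scn2a1 and Scn2b. Cacna1a, the main calcium pore of Purkinje cells, had 17.6 FPKM in E1 and 4.73 to 6.68 FPKM in the others. Scn2a1 had 8.03 FPKM in E1 and 1.15 to 1.58 FPKM in the others. Cacna1i, a T-type gene under the filter and likewise chosen after its values were seen, had 1.71 FPKM in E1 and 0.0289 to 0.223 FPKM in the others. By contrast, E1 was within the range of the other libraries for Cacna1d (9.40 FPKM), Scn4b (54.2 FPKM) and Cacna2d3 (11.2 FPKM). The part of cerebellar RNA in the differences at 5 months was not tested beyond leaving E1 out.

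The channel genes of skeletal muscle followed another pair of libraries, one of each genotype. Cacna1s encodes the voltage sensor of muscle excitation and contraction coupling, Cacng1 its gamma subunit and Scn4a the muscle sodium pore. At 5 months Cacna1s had 0.0435, 2.15 and 0.434 FPKM in KO against 0.104, 3.14 and 0.0977 FPKM in WT. Cacng1 had 0.184, 8.16 and 0.725 FPKM in KO against 0.0936, 10.1 and 0.556 FPKM in WT. In both genes F18 and E3 were the high libraries, as they were for Acta1. At 8 months Cacna1s had 0.459, 0.0555 and 0.518 FPKM in KO against 0.0808, 0.0380 and 0.0478 FPKM in WT. The libraries F5 and F27, with 39.9 and 23.8 FPKM of Acta1, were those with more Cacna1s, so that KO averaged above WT (0.344 ± 0.252 and 0.0556 ± 0.0224 FPKM; change 0.55 ± 0.73, adjusted p = 0.983). Scn4a stayed between 0.0527 and 1.10 FPKM and was highest in E3 and F18. Cacnb1, which encodes the beta subunit of the muscle channel and is also used by other cells, had 7.29 to 10.5 FPKM in all libraries and was highest in E3.

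The upstream sequences of the muscle members are shown because these genes varied together across libraries. They are the 250 bases before the RefSeq start of Cacna1s, Cacng6 and Scn4a, in GRCm38.p6. The E-box CANNTG, the core letters bound by muscle regulatory factors and by many other proteins, is in capitals. A match on either strand is a match on both. Cacng6, a gamma gene related to Cacng1 and chosen after its values were seen, had 1.01 FPKM in E3, 0.659 FPKM in F18 and at most 0.142 FPKM elsewhere.
Cacna1s, chr1:136052561-136052810, plus strand: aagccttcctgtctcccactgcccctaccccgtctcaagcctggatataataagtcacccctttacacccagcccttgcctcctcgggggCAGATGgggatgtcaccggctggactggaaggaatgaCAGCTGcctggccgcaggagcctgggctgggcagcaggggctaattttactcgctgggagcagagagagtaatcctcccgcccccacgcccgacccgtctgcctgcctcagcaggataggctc
Cacng6, chr7:3424412-3424661, plus strand: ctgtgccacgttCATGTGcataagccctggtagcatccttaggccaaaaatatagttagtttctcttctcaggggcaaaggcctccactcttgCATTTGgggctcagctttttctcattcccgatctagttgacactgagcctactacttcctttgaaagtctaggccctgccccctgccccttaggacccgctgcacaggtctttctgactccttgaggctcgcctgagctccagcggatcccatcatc
Scn4a, chr11:106349391-106349640, minus strand: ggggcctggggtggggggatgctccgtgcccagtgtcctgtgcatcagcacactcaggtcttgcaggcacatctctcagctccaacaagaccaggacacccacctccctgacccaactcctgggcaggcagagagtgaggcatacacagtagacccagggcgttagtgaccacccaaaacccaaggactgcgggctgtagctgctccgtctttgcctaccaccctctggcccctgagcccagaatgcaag

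Cacna1s holds 2 matches, at 160 and 123 bases before the start, and Cacng6 holds 2, at 238 and 157 bases before it. The window of Scn4a holds 0. Over 32851 RefSeq promoters 66.2% hold CANNTG in this window, and of the 30 members matched by symbol 63.3% do. The narrower CAGCTG, which Cacna1s alone of these 3 holds, is in 4271 of all promoters and in 8 of the 30 members. A match is a run of letters and says nothing of what binds there.

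A further pattern was that of the nociceptor channels, which were chosen after their values were seen. Scn10a and Scn11a encode sodium pores of small sensory neurons, such as those of the trigeminal and dorsal root ganglia. At 5 months Scn10a had 1.20, 0.688 and 0.232 FPKM in KO against 2.37, 6.27 and 0.361 FPKM in WT. At 8 months it had 14.1, 6.69 and 0.176 FPKM in KO against 5.64, 4.16 and 10.7 FPKM in WT. Both KO and WT held high and low libraries, and the groups overlapped at both ages. Scn11a followed it, at 7.18 FPKM in F5, 6.04 in F12, 4.09 in F6 and 4.08 in E3, and at 0.0976 FPKM in F27. Calca, a peptide gene of such neurons, ran from 3.19 FPKM in F27 to 132 FPKM in F5. Scn9a, a further pore gene of pain fibres that other neurons also use, had 1.43 to 4.52 FPKM. Of the 10 sensory neuron markers, also chosen after their values were seen, all were found and Mrgprd was at 0 in some libraries. They summed to 85.2 to 133 FPKM in KO and 88.1 to 188 FPKM in WT at 5 months, and to 92.1 to 377 FPKM in KO and 201 to 355 FPKM in WT at 8 months. The part of RNA from such neurons in these levels was not tested.

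**Figure D4:**
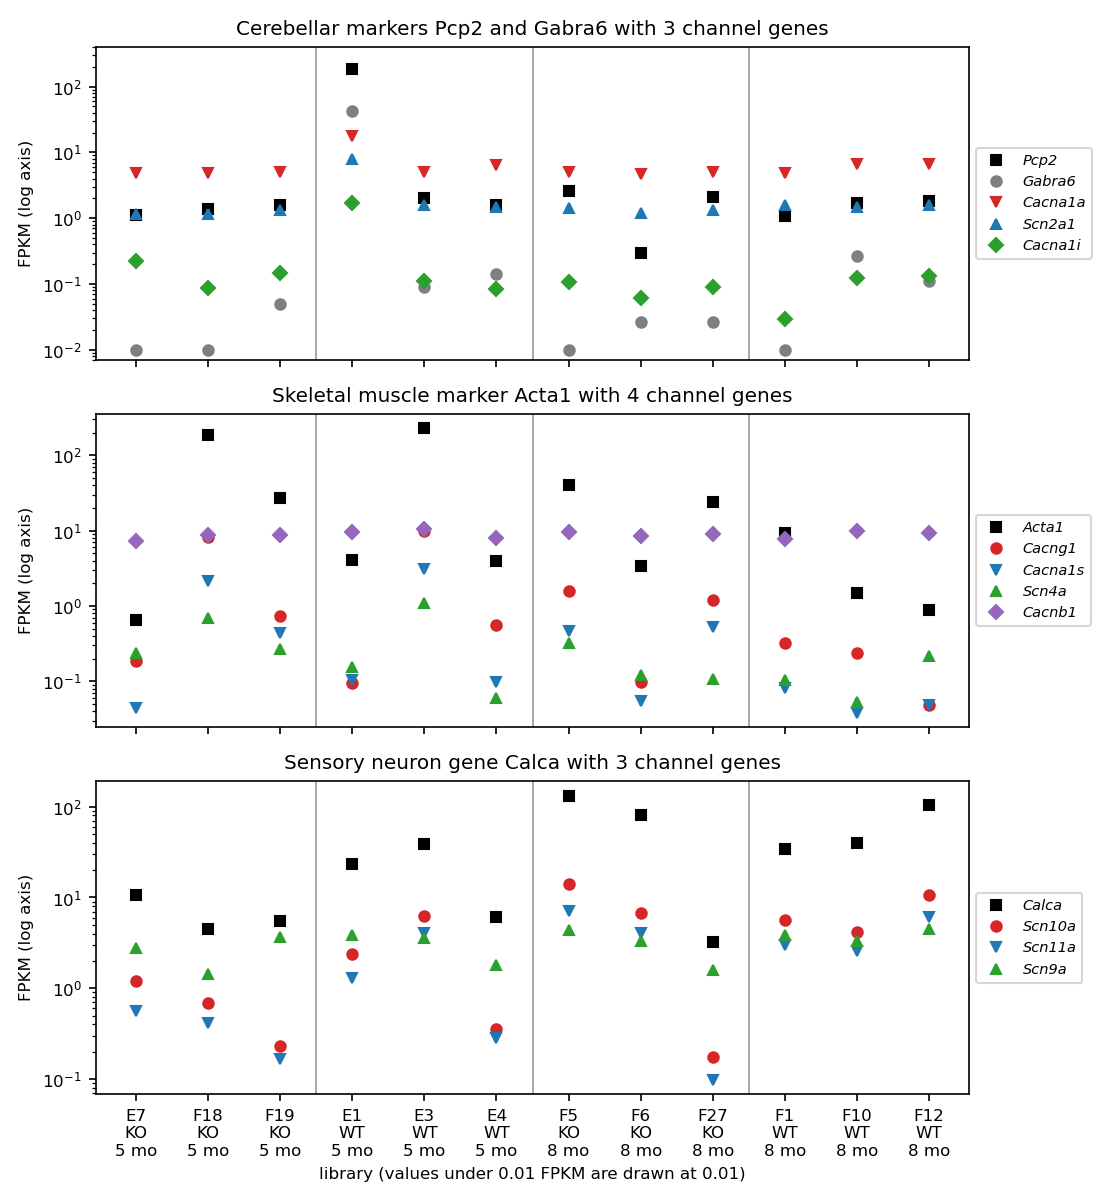
FPKM on log axes in the 12 libraries, each panel with a marker of another tissue (black squares) and channel genes drawn beside it. E1 stands alone for Pcp2 (186 FPKM), E3 and F18 for Acta1 (228 and 188 FPKM), and Scn10a and Scn11a have their top values in F5, as Calca has, while Cacnb1 stays nearly level.

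Cacna2d4, the alpha2delta gene of photoreceptors, differed between libraries in yet another way. It had 1.76, 3.92 and 3.35 FPKM in KO at 8 months against 1.26, 4.38 and 0.988 FPKM in WT at 8 months. At 5 months it had 0.950, 1.05 and 1.34 FPKM in KO against 1.54, 1.82 and 1.25 FPKM in WT. The 3 high libraries F10, F6 and F27 were of both genotypes and all of 8 months. Espn, a gene of hair cell stereocilia looked up after this was seen, was also highest there, at 17.9, 16.8 and 15.2 FPKM, against 6.55 to 13.2 FPKM in the other 9 libraries. The hair cell genes Otof, Chrna10 and Cabp2 were highest there too. Otof had 14.41, 11.44 and 11.96 FPKM in F10, F6 and F27, against at most 11.03 FPKM elsewhere. Chrna10 had 8.655, 8.048 and 7.078 FPKM, against at most 6.381 FPKM. Cabp2 had 23.36, 30.84 and 20 FPKM, against at most 18.51 FPKM. The outer hair cell gene Slc26a5 was not highest there, at 1.72, 1.04 and 2.07 FPKM in F10, F6 and F27. Nor were Ocm and Myo7a, with top values in E4 (74.8 FPKM) and F19 (7.057 FPKM). The 8 hair cell markers summed to 83.3 to 112 FPKM in KO and 86.9 to 110 FPKM in WT at 8 months, and to 73.5 to 87.4 FPKM in KO and 74.8 to 104 FPKM in WT at 5 months. Their part in the age difference of Cacna2d4 in KO (1.07 ± 0.41, adjusted p = 0.351) was not tested.

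Several members gave no difference at an unadjusted p under 0.05 in any of these contrasts, among them Scn3b (1.78 to 5.56 FPKM), Cacna1b, Cacna1e, Cacna1h, Cacng4 and Cacng8 (0.554 to 2.16 FPKM). Under the filter, Scn3a had 0.334 to 0.567 FPKM and Cacng3 had 0.0390 to 0.709 FPKM, with the top value in E1.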

How the data were processed

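The authors prepared stranded polyA libraries from 1 µg of cochlear RNA, checked reads with FastQC 0.10.1, aligned them with TopHat2 2.0.10 to mm9, using Bowtie 1.0.0 and SAMtools 0.1.19, and took FPKM per library and per group from Cufflinks 2.2.1. In the deposited FPKM table the decimal point of many values was missing or misplaced. Its place was restored as the single placing whose mean over a group equals the authors' group FPKM: 95800 of 95804 gene and group pairs had 1 placing, 55.35% of values were changed, and 2 of 23951 genes, none a channel gene, were left out. No source used here gives read counts, so depth is unknown. FPKM, being shares of a library, move when another tissue's RNA enters it. The authors' own comparison columns (fold changes, p) were not used.

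Changes and p-values came from R 4.3.3 with limma 3.58.1 (variance trend), tested on simulated data. Tables and figures came from Python 3.11.15 with NumPy 2.4.6 and Matplotlib 3.10.9. Counts and medians are over all 34 members tested, of which 2 are not reported singly here. The members and lists were chosen with earlier results of these data known. Members named with values are the highest of each role, muscle, hair cell and ganglion members, and at most 10 per contrast with an unadjusted p under 0.05. Nothing in the labels says that libraries pair across groups, and p-values measure the spread between these 3 libraries a group. An exact permutation test of 3 against 3 cannot go below 0.1 and was not used. Alternatives were pseudocounts of 0.1 and 1, a mean of at least 1 or no filter, quantile or median ratio scaling, no trend, array weights, the compared groups alone, Xist level as covariate and leaving out each library. After the data were seen, leaving out E3 and F18, or also E1, and a neuron marker covariate were added.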

Additional observations from a re-analysis of the deposited data

How the results depend on the processing

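No channel gene passed at an adjusted p of 0.05 in any of the 6 contrasts under any alternative, a count of 0 in 148 of 148 runs, and no single gene value checked crossed it. Of these, for genes with an unadjusted p under 0.05 or a printed change, 1030 kept their direction and 3 did not. Without E1, E3 and F18, KO against WT at 5 months was 0.40 for Scn2b and 0.040 for Cacna1d, and with the neuron marker covariate it was 0.0036 for Cacnb3. Over all members more turned: for KO against WT at 5 months 4 of 34 without E1, 10 of 33 without E1, E3 and F18 and 8 of 34 with the neuron marker covariate had the other sign. With limma on all libraries, 14, 5 and 11 members had an unadjusted p under 0.05 for KO against WT at 5 months, at 8 months and over both ages. Of the medians 140 of 148 moved by less than 1 SD between libraries and 8 moved more. Without E1, E3 and F18 the median change was -0.13 for KO against WT at 5 months, -0.16 over both ages, -0.026 for the genotype difference between ages and 0.049 for 8 against 5 months in WT. In that setting WT at 5 months is E4 alone. With the neuron marker level as a covariate it was -0.041 for KO against WT at 8 months, -0.16 over both ages and -0.25 for 8 against 5 months in WT. Leaving out a library in turn gave 0.11 (without E1) to 0.41 (without E4) for the genotype difference between ages. No paired analysis was possible because the groups share no replicate numbers. With 3 libraries a group, no read counts and several libraries high in markers of other tissues or blood cells, small changes of low genes could not be resolved.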

Other observations

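Beyond the members, 15 relatives and subunits of the same channel superfamily were in the table, and 11 were tested. At 5 months 8 of the 11 were below 0, with a median of -0.11, 3 lower and 1 higher at an unadjusted p under 0.05, against 9.92% and 8.23% of all genes. Without E1 the median was -0.094, with 8 of 11 below 0 and 1 lower. Nalcn, the sodium leak channel that sets the resting potential of neurons, had 10.02, 9.63 and 12.6 FPKM in KO against 14.96, 12.9 and 14.3 FPKM in WT. Its groups did not overlap at 5 months (change -0.38 ± 0.12, adjusted p = 0.198), and the genes of its partners Unc80 and Fam155a were the other lower ones. At 8 months Nalcn had 10.1, 10.6 and 12.5 FPKM in KO against 11.58, 12.5 and 10.2 FPKM in WT, where the groups overlapped. The gene higher at 5 months was Hvcn1, the proton channel of leukocytes, with a change of 0.94 ± 0.37 (adjusted p = 0.233).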
